A study of Mus musculus with 18 samples.

Results

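The genes described here are the 10 members of a set of matricellular and matrix glycoprotein genes, taken by symbol from the 46068 genes used of the total RNA count table: Postn, Thbs1, Thbs2, Tnc, Spp1, Sparc, Dcn, Lum, Fbln1 and Fbln2. The libraries came from B16 cells, a mouse melanoma line, in a Control group, a group treated with ATRA and a group treated with PB-4, with 3 total RNA libraries per group. ATRA is all-trans retinoic acid, which binds and activates retinoic acid receptors. PB-4 is sodium phenylbutanoate, an inhibitor of histone deacetylases. The sources used here state neither the dose and duration for the sequenced cells nor a vehicle for the Control group. The labels name B16 as the cell line and mouse skin tissue as the source.

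Matricellular proteins are secreted into the extracellular matrix but do not mainly build it. They bind matrix fibres, growth factors and cell surface receptors such as integrins, and so tune adhesion, migration and the release of growth factors. Small leucine-rich proteoglycans such as decorin and lumican bind collagen and set the spacing of its fibrils, while fibulins join elastic fibres and basement membranes. In melanoma tissue many of these proteins are made by stromal fibroblasts, and osteopontin, SPARC, tenascin-C and thrombospondin are also made by the tumour cells themselves.

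Each library held 12659796 to 36255166 counts. CPM (gene counts scaled by the size and composition of each library) is the unit of levels. Changes are given as log2 fold change ± standard error, and p-values come from edgeR's quasi-likelihood test, adjusted over all genes tested. A change was called at an adjusted p below 0.05. Nothing in the labels says that the 3 libraries of a group came from separate cultures, so the p-values describe no more than how these libraries vary. The first principal component (49.5% of the variance) set the PB-4-treated group apart, and the second (28.1%) set replicate 3 of every group apart from replicates 1 and 2. The nuclear RNA Malat1 was lower in replicate 3 than the mean of replicates 1 and 2 by a log2 difference of -2.22 among Control libraries, -1.35 among ATRA-treated and -1.04 among PB-4-treated ones. Same-numbered libraries deviated together, so the value of a fit with the replicate number as a block is given beside a result that it changes.

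The labelled cell type was checked against its markers. The 7 melanocyte genes (Pmel, Mlana, Tyr, Tyrp1, Dct, Mitf and Sox10) summed to 12200 to 14600 CPM in Control libraries, 7850 to 10200 CPM in ATRA-treated ones and 6780 to 8330 CPM in PB-4-treated ones. Against the Control group edgeR called 3 of the 7 lower and 0 higher with PB-4 (4.59% and 11.5% of all genes tested). With ATRA 0 of the 7 were called, and with the replicate block 4 were lower (18.4% of all genes tested in either direction). The 5 keratinocyte genes summed to no more than 0.203 CPM in any library. The skin-source label was therefore not matched by keratinocyte transcripts.

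The promoters of Postn and Spp1 are shown because these 2 members rose with PB-4 against both other groups and have a window in the RefSeq promoter table (build GRCm38.p6), which held 7 of the 10 members. Each is the 250 bases before the gene's start, read on the gene's strand, and capitals mark the motifs found in a search of 7 motifs on both strands. Postn starts at position 54359267 of chromosome 3, on the plus strand, and its window is chr3:54359017-54359266. Spp1 starts at position 104435111 of chromosome 5, on the plus strand, and its window is chr5:104434861-104435110.
Postn: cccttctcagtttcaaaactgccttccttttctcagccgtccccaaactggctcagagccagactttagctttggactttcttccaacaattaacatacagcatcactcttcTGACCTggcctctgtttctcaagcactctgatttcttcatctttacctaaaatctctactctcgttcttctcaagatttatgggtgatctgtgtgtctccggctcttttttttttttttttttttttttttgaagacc
Spp1: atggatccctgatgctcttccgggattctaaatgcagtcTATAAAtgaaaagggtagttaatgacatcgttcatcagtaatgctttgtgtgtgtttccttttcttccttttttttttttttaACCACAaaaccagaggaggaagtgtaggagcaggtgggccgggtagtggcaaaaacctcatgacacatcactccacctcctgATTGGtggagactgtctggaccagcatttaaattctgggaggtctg
In the Postn window the capitals mark AGGTCA, the hexamer bound by nuclear receptors, on the reverse strand 138 bases before the start. AGGTCA was present in 14.0% of the 32851 windows of the table. In the Spp1 window they mark TATAAA at 211 bases before the start (12.4% of windows), TGTGGT, a Runx motif, on the reverse strand at 128 (14.0%) and CCAAT on the reverse strand at 46 (33.8%). Neither window held GGGCGG, a GC box found in 32.7% of windows. Neither held TGANTCA, the AP-1 motif (6.75%), nor CACGTG, an E-box (6.02%). No searched motif was shared by the pair, and a match describes letters, not a bound site.

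With PB-4, 3 of the 9 members tested rose against the Control group, Postn, Lum and Spp1, and edgeR called none of the 9 lower (11.5% and 4.59% of the 19450 genes tested were called higher and lower). At an unadjusted p below 0.05, 6 members were higher and 0 lower (20.3% of genes tested were higher), and DESeq2 called 5 higher (15.8% of its genes) and 0 lower. The median log2 fold change over the 9 members tested was 1.50, with 0.03 over all genes tested. Some members, Lum among them, passed the count filter only through PB-4-treated libraries. The counts and this median therefore describe the members tested and not the whole set. In bulk RNA, more cells making a transcript and more transcript per cell cannot be told apart.

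Postn encodes periostin, a secreted protein that binds integrins and cross-links collagen. Its level was 4.33, 6.81 and 3.72 CPM in Control replicates 1 to 3, 1.5, 3.83 and 3.35 CPM after ATRA, and 38.7, 33.7 and 43.3 CPM with PB-4. Every PB-4-treated library lay above every other library. The mean rose from 4.95 ± 1.64 CPM (SD, n = 3) in the Control group to 38.6 ± 4.82 CPM with PB-4, a log2 fold change of 2.94 ± 0.31 (edgeR adjusted p = 0.00129). Relative to ATRA (2.89 ± 1.23 CPM) the change was 3.78 ± 0.38 (edgeR adjusted p = 7.6e-04). Both calls held in 14 of 14 alternatives, with highest adjusted p-values of 0.0107 and 0.00416. Between same-numbered libraries Postn was 8.94, 4.95 and 11.6 times its Control level after PB-4. The gene (chromosome 3, 54359267 to 54391041) overlaps the lncRNA gene Gm31095, and reads of the pair cannot be told apart because no source used here gives the strand used in counting.

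Spp1 encodes osteopontin, a phosphorylated ligand of integrins and CD44 that melanoma and bone cells secrete. Its level was 8.55, 6.18 and 4.43 CPM in the Control group, 1.66, 4.3 and 7.91 CPM with ATRA, and 16.7, 14.1 and 14.9 CPM with PB-4. The PB-4-treated libraries lay above all others, and the ATRA-treated and Control libraries overlapped. The mean rose from 6.38 ± 2.07 to 15.2 ± 1.34 CPM (log2 fold change 1.24 ± 0.33, edgeR adjusted p = 0.0361). The call was lost in the fit of all 9 libraries (adjusted p = 0.0967). Leaving out Control replicate 2 (0.131) or Control replicate 3 (0.0504) also ended it, as did leaving out replicate 1 (0.0936) or 2 (0.0877) of the PB-4-treated group. Compared with ATRA (4.62 ± 3.14 CPM) Spp1 rose by 1.80 ± 0.49 (edgeR adjusted p = 0.0455), and 7 of 14 alternatives passed. That call was lost without ATRA replicate 1 (adjusted p = 0.0924), ATRA replicate 2 (0.121), PB-4 replicate 1 (0.127), PB-4 replicate 2 (0.123) or PB-4 replicate 3 (0.073). It was also lost with RLE size factors (0.0544) and with edgeR's own expression filter (0.0502).

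**Figure D1:**
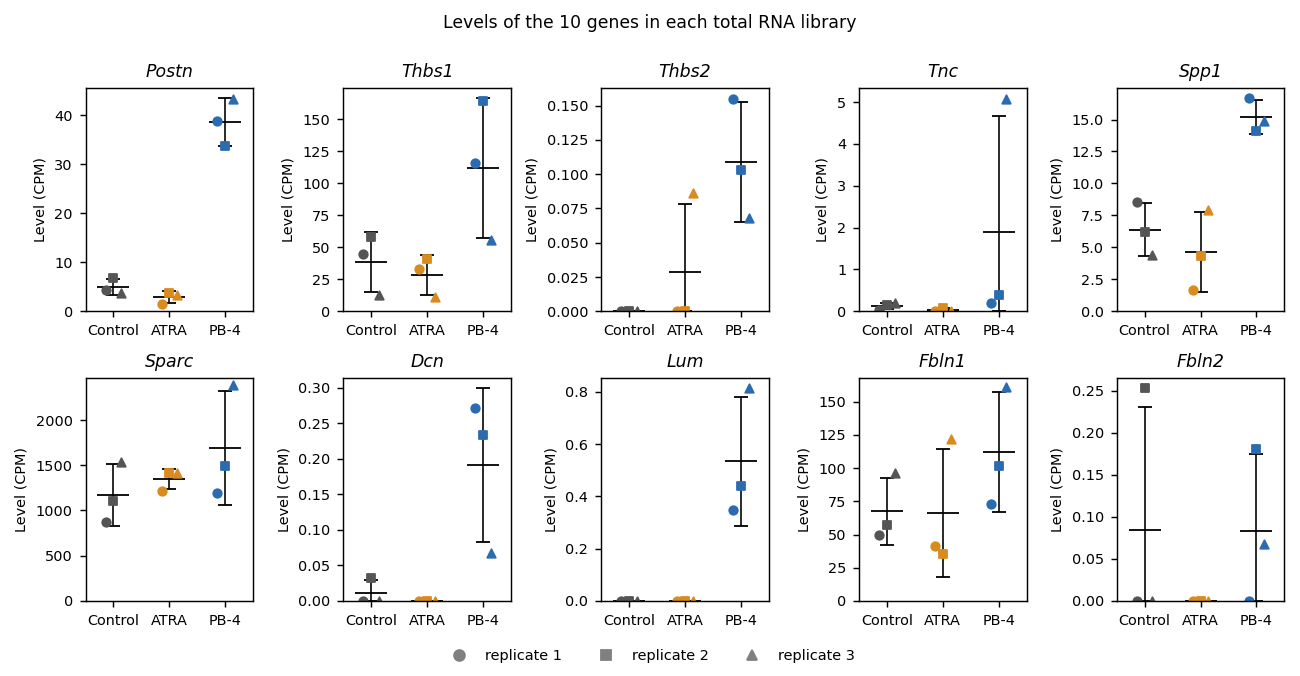
Level of each of the 10 genes in CPM (y axis, linear, a scale of its own per gene) in the 9 total RNA libraries by group; marker shape gives the replicate number, the long bar is the mean and the whiskers are 1 SD (n = 3), drawn down to 0 at most. Postn and Spp1 lie higher in all 3 PB-4-treated libraries than in the other 6, Lum is above 0 with PB-4 alone, and Tnc is high in PB-4 replicate 3 only (5.08 CPM).

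Lum encodes lumican, a keratan sulfate proteoglycan that binds collagen fibrils. It had 0 counts in each of the 6 Control and ATRA-treated libraries, and 9, 17 and 12 counts (0.349, 0.439 and 0.813 CPM) in the PB-4-treated libraries. A count of 0 allows up to 3 counts, which is 0.0832 to 0.258 CPM per library in those 6. With that floor of 3 counts over the group, the PB-4 level of Lum was at least 11.8-fold higher than the Control level (edgeR adjusted p = 0.0211) and at least 12.5-fold higher than the ATRA level (edgeR adjusted p = 0.0203). These intervals and floors cover counting error only. The call against the Control group was lost when Control replicate 1 (adjusted p = 0.0543, at least 7.53-fold) or Control replicate 2 (0.0627, at least 6.77-fold) was left out. It was also lost when PB-4 replicate 2 (0.0609) or PB-4 replicate 3 (0.0533) was left out. The call against the ATRA-treated group was lost without ATRA replicate 1 (0.0585, at least 7.62-fold), ATRA replicate 2 (0.0538, at least 6.75-fold) or PB-4 replicate 2 (0.0614).

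Dcn encodes decorin, a proteoglycan that binds collagen and transforming growth factor beta. It lies beside Lum on chromosome 10 (Dcn 97479500 to 97518163, Lum 97565501 to 97572703, GRCm38.p6), followed by the keratocan gene Kera and the epiphycan gene Epyc. Dcn had 0, 1 and 0 counts in the Control group, 0 in all ATRA-treated libraries, and 7, 9 and 1 with PB-4. The ratio of 17 to 1 counts was 15.9 with an exact 95% counting interval of 2.48 to 663, and Dcn did not pass the test against the Control group (edgeR adjusted p = 0.105) or the ATRA-treated group (0.0754, at least 5.6-fold higher with PB-4). Without Control replicate 2, which held the only Control count, Dcn was at least 3.03-fold higher, and the bound against ATRA was 3.41-fold without ATRA replicate 1 and 3.02-fold without ATRA replicate 2. Of the neighbours, Epyc had 1, 0 and 21 counts in the Control, ATRA-treated and PB-4-treated groups and did not pass against the Control group (adjusted p = 0.157), and Kera had 0 in all. Dcn, Lum and Epyc thus had most or all of their few counts in the PB-4-treated group.

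Thbs1 encodes thrombospondin 1, which binds CD36 and CD47, inhibits the growth of vessels and activates latent transforming growth factor beta. Its level was 45.0, 58.2 and 12.6 CPM in the Control group, 33.1, 41.2 and 10.8 CPM with ATRA, and 116, 164 and 55.6 CPM with PB-4. Replicate 3 was the lowest library in each group, by a log2 difference of -1.98, -1.72 and -1.30 from the mean of replicates 1 and 2. PB-4 replicate 3 lay below Control replicate 2, so the PB-4-treated and Control groups overlapped. Against the Control group the log2 fold change was 1.50 ± 0.57 and did not pass (edgeR adjusted p = 0.108), while with the replicate block it was 1.63 ± 0.15 and passed (adjusted p = 7.2e-08). Within numbers 1, 2 and 3 Thbs1 was 2.57, 2.82 and 4.42 times higher with PB-4. All PB-4-treated libraries were above all ATRA-treated ones, and against that group Thbs1 rose by 1.98 ± 0.53 (edgeR adjusted p = 0.0413). That call was lost without ATRA replicate 1 (0.107), PB-4 replicate 1 (0.0873) or PB-4 replicate 2 (0.133), in the fit of all 9 libraries (0.0567) and with no filter on low counts (0.0765).

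Thbs2 encodes thrombospondin 2, a relative of thrombospondin 1 that fibroblasts make during repair. It had 0 counts in the 3 Control libraries, 0, 0 and 1 with ATRA, and 4, 4 and 1 with PB-4. It had fewer than the 10 counts needed for a test against the Control group. Its PB-4 level was at least 2.8-fold higher than that group's. Without Control replicate 2 that bound was 1.6-fold and without Control replicate 1 it was 1.78-fold. Relative to ATRA the ratio of 9 to 1 counts was 8.89 (exact 95% counting interval 1.23 to 390.0), and the test did not pass (edgeR adjusted p = 0.317). Without ATRA replicate 3, which held that count, Thbs2 was at least 2.52-fold higher.

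Tnc encodes tenascin-C, a large anti-adhesive protein of healing wounds and tumour stroma. It had 1, 5 and 3 counts in the Control group, 0, 3 and 0 with ATRA, and 5, 15 and 75 with PB-4. PB-4 replicate 3 alone held 75 of the 95 counts of its group (5.08 CPM, with 0.194 and 0.388 CPM in replicates 1 and 2). The log2 fold change against the Control group was 3.82 ± 1.33 (edgeR adjusted p = 0.0867), and it was 1.24 (adjusted p = 0.467) without PB-4 replicate 3. Compared with ATRA it was 5.50 ± 1.56 (0.0526) and 2.92 (0.175) without that library. With the replicate block both comparisons passed, at 2.87 ± 0.83 (adjusted p = 0.00698) and 4.36 ± 1.01 (0.00193). Tnc (chromosome 4, 63959785 to 64047015) overlaps the lncRNA gene 8030451A03Rik, from which its reads cannot be told apart here.

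Sparc encodes SPARC (osteonectin), a calcium-binding glycoprotein that binds collagen and loosens cell contacts. Its level was 873, 1110 and 1540 CPM in the Control group, 1220, 1410 and 1410 CPM with ATRA, and 1190, 1490 and 2390 CPM with PB-4. The 3 groups overlapped. Against the Control group the PB-4 change was 0.53 ± 0.32 and did not pass (edgeR adjusted p = 0.303), and with the replicate block it was 0.50 ± 0.13 and passed (adjusted p = 0.00263). Within numbers 1, 2 and 3 the ratio was 1.36, 1.35 and 1.55. Relative to ATRA the change was 0.36 ± 0.29 (edgeR adjusted p = 0.474), and without PB-4 replicate 3 it was -0.01 (0.98).

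Fbln1 encodes fibulin 1, a calcium-binding protein of basement membranes and elastic fibres. Its level was 49.5, 56.9 and 96.2 CPM in the Control group, 41.1, 35.7 and 122 CPM with ATRA, and 73.0, 102 and 161 CPM with PB-4. Replicate 3 was the highest library in each group, and the groups overlapped. The PB-4 change was 0.73 ± 0.35 against the Control group (edgeR adjusted p = 0.184) and 0.82 ± 0.47 against the ATRA-treated group (0.304). Neither passed, and both passed with the replicate block, at 0.71 ± 0.12 (adjusted p = 3.6e-05) and 0.95 ± 0.18 (2.7e-04). Without ATRA replicate 3 the change against the ATRA-treated group was 1.55 and passed (0.027). Fbln2, which encodes fibulin 2 of the same structures, had 0, 8 and 0 counts in the Control group, 0 with ATRA, and 0, 7 and 1 with PB-4. Its PB-4 change against the Control group was -0.11 ± 1.55 (edgeR adjusted p = 0.969), with a ratio of 0.933 and an exact 95% counting interval of 0.305 to 2.85, so that no difference was detectable at this depth. Compared with ATRA it had too few counts for a test.

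**Figure D2:**
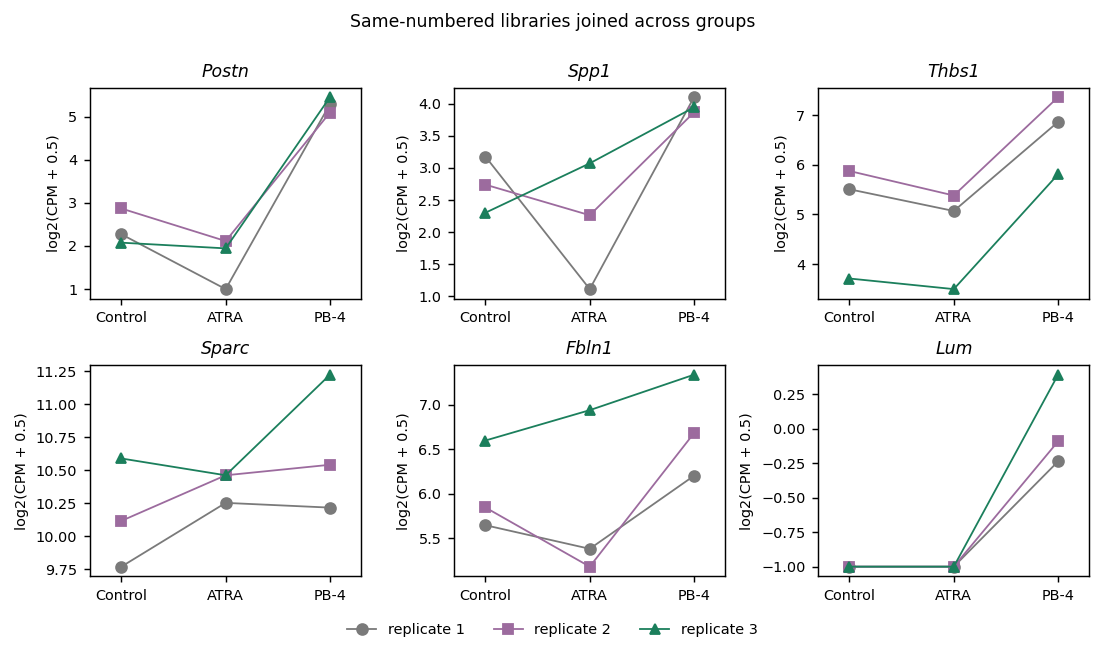
Level of 6 of the genes on a log2 scale (y axis, log2(CPM + 0.5)) with libraries of the same replicate number joined across the Control, ATRA-treated and PB-4-treated groups; each line is 1 replicate number. For Thbs1 the 3 lines run nearly parallel, with replicate 3 lowest in each group, while for Spp1 the line of replicate 3 rises from Control (4.43 CPM) to ATRA (7.91 CPM) where the other two fall.

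With the replicate block, 7 of the 9 members tested were higher with PB-4 than in the Control group, Postn, Lum, Spp1, Thbs1, Tnc, Sparc and Fbln1 (23.1% of all genes tested), and with replicates 1 and 2 only, 6 were higher, the same genes without Tnc (22.9%). Against the ATRA-treated group 4 of 9 members tested rose, Postn, Lum, Thbs1 and Spp1, and 0 fell (10.3% and 1.94% of the 19521 genes tested were called higher and lower). At an unadjusted p below 0.05, 6 were higher and 0 lower (19.6% of genes tested were higher). In that comparison 6 were called higher with the block (18.7% of genes), 6 with replicates 1 and 2 only (21.1%) and 5 with DESeq2 (14.3%), which called 0 lower. The median log2 fold change of the 9 members was 2.55, or 2.49 with Lum and Dcn at their bounds, and 0.04 over all genes tested. Lum, Dcn, Tnc and Thbs2 reached the count minimum in this comparison through PB-4-treated libraries. That minimum favoured a high median, which describes only the members tested. Both comparisons use the same PB-4-treated libraries, so they are not independent of each other. Of the 9 members tested, all 3 PB-4-treated libraries lay above all 3 Control libraries for Postn, Lum, Tnc, Spp1 and Dcn (22.3% of genes tested). They lay above all 3 ATRA-treated libraries for these 5 and Thbs1 (20.5%). For Dcn this was no measurable gap, since the lowest PB-4-treated library had 1 count, with 1 in the highest Control library and 0 in the ATRA-treated ones. For Tnc the gap to the Control group was narrow, with 0.194 CPM in the lowest PB-4-treated library and 0.193 CPM in the highest Control library. In both comparisons Lum, Dcn and Tnc reached the count minimum only through PB-4-treated libraries. Their places among the members counted as higher or without overlap were therefore favoured by that minimum.

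**Figure D3:**
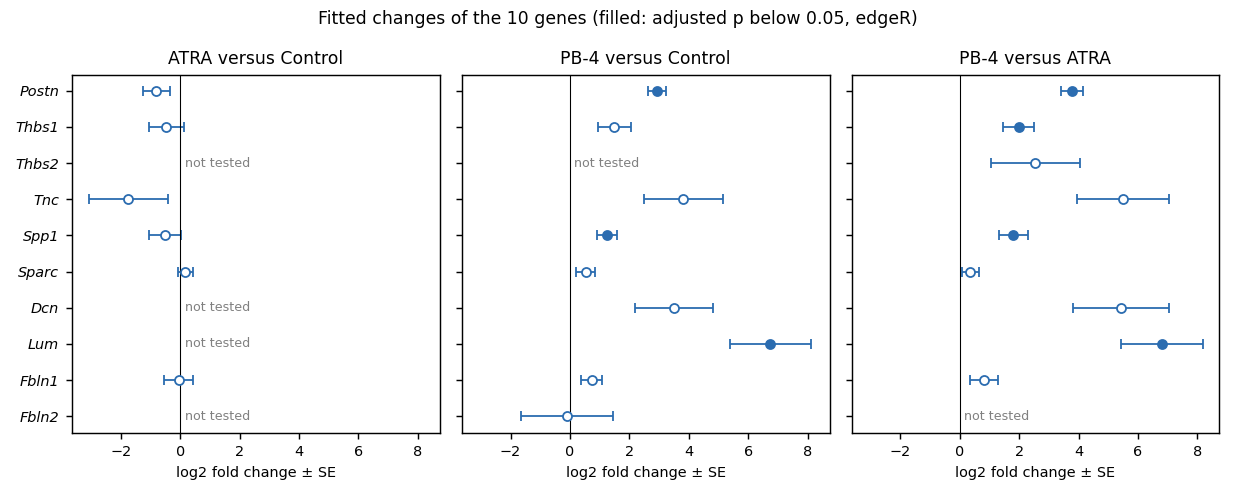
Fitted log2 fold change (x axis) of each of the 10 genes in the 3 comparisons, with whiskers of 1 standard error; filled points have an edgeR adjusted p below 0.05, and genes under the count minimum are marked as not tested. Filled points are absent in ATRA versus Control, are Postn, Spp1 and Lum in PB-4 versus Control, and are Postn, Thbs1, Spp1 and Lum in PB-4 versus ATRA; the position of Lum (6.75 and 6.81) depends on the small number that edgeR adds to counts of 0.

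With ATRA, edgeR called no change against the Control group among the 6 members tested at an adjusted p below 0.05, where 0.441% and 0.625% of the 17911 genes tested were called higher and lower. None of the 6 had an unadjusted p below 0.05 (15.7% of genes tested). DESeq2 called 0 of the 5 members it tested (1248 of its 15811 genes in either direction). The replicate block called 0 members as well (18.4% of genes in either direction). The ATRA-treated and Control libraries overlapped for all 6 (21.2% of genes tested did not overlap). The log2 fold changes were -0.80 ± 0.46 for Postn (edgeR adjusted p = 0.448), -0.51 ± 0.55 for Spp1 (0.717), -0.46 ± 0.60 for Thbs1 (0.773) and -1.74 ± 1.34 for Tnc (0.586), which had 3 counts against 9. They were 0.18 ± 0.25 for Sparc (0.779) and -0.05 ± 0.49 for Fbln1 (0.973). Dcn, Lum, Thbs2 and Fbln2 had too few counts for a test.

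Replicate 3 went another way than replicates 1 and 2 in this comparison for Spp1, Sparc and Fbln1. Spp1 was 0.195 and 0.696 times its same-numbered Control level in ATRA replicates 1 and 2 and 1.79 times in replicate 3. Sparc was 1.4, 1.28 and 0.915 times, and Fbln1 0.829, 0.627 and 1.27 times. With replicates 1 and 2 only, 5 members were called, Sparc higher (log2 fold change 0.41, adjusted p = 0.0155) and Postn (-1.06, 0.0433), Spp1 (-1.29, 0.0129), Thbs1 (-0.48, 0.0114) and Fbln1 (-0.47, 0.00465) lower. In that fit 37% of all genes tested were called in either direction.

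Other genes of the matrix were read from 6 lists of 111 genes. Of 87 tested with PB-4 against the Control group, 39 rose, 3 fell and 45 did not pass, where 11.5% and 4.59% of all genes tested were called higher and lower. With the replicate block 47 were higher and 10 lower (23.1% and 21.3% of all genes tested). Some list genes, among them Fmod, Podn, Tgfbi, Smoc1, Ltbp2 and Nid2, reached the count minimum only through PB-4-treated libraries. Summed over the Control libraries they had 7, 1, 1, 5, 4 and 2 counts. Where a list holds such genes, that minimum favoured its number of higher genes and its median, which describe the genes tested. Among small leucine-rich proteoglycans, relatives of Dcn and Lum, 5 of 10 tested rose: Fmod, the fibromodulin gene (log2 fold change 6.71 ± 1.02), Prelp (2.37 ± 0.25), Ogn, the osteoglycin gene (2.49 ± 0.53), Podn and Optc. Their median log2 fold change was 2.43. Prelp was also higher with ATRA (29.1 ± 8.82 CPM, with 6.87 ± 0.414 in Control libraries and 35.9 ± 7.0 after PB-4).

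Among 16 other matricellular genes tested, 9 rose with PB-4 and 7 did not pass, with a median of 2.01, or 1.77 with genes at 0 set to their bounds. Tgfbi, an integrin-binding protein gene that transforming growth factor beta induces, had 1 count in the Control libraries and 407 with PB-4 (6.49 ± 5.72 CPM, edgeR adjusted p = 0.00293). Smoc1, which encodes a relative of SPARC, rose from 0.0693 ± 0.0404 to 2.68 ± 0.989 CPM (5.18 ± 0.70, 0.00259). Nov, also named Ccn3, which encodes a cysteine-rich protein of the CCN family, rose from 0.244 ± 0.184 to 5.04 ± 2.4 CPM (4.45 ± 0.68, 0.00429).

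Of 21 genes of fibrils and basement membrane tested, 8 rose and 1 fell (median 1.78). Ltbp1, which encodes a protein that stores latent transforming growth factor beta in the matrix, rose from 1.09 ± 0.227 to 29.2 ± 7.51 CPM (4.75 ± 0.34, edgeR adjusted p = 3.7e-04), and its relative Ltbp2 from 0.0498 ± 0.0862 to 16.2 ± 9.75 CPM (8.09 ± 0.94, 0.00164). The basement membrane gene Nid2 had 2 counts in the Control libraries and 135 with PB-4 (edgeR adjusted p = 0.015), while its relative Nid1 fell from 10.5 ± 2.25 to 4.32 ± 0.449 CPM (-1.28 ± 0.32, 0.0276).

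Of 15 receptor genes tested, 8 rose and 7 did not pass (median 1.00). Cd36, a receptor of thrombospondin, rose from 0.268 ± 0.211 to 13.1 ± 8.58 CPM (5.49 ± 0.84, edgeR adjusted p = 0.00423). Lrp1, the receptor that takes up thrombospondin, rose from 221 ± 48.9 to 807 ± 263 CPM (1.87 ± 0.29, 0.00466), and the syndecan gene Sdc3 rose by 1.87 ± 0.45 (0.0265). Among 14 protease and inhibitor genes 5 rose, among them Timp4 (3.05 ± 0.46), the gelatinase gene Mmp9 (4.61 ± 1.03), Bmp1 and Timp3. The gelatinase gene Mmp2 (-2.61 ± 0.65, edgeR adjusted p = 0.0294) and Mmp14, whose product activates the Mmp2 enzyme (-0.93 ± 0.21, 0.0212), fell. Of 11 genes of the transforming growth factor beta axis 4 rose, the ligand genes Tgfb1 (1.55 ± 0.39) and Tgfb3 and the receptor genes Tgfbr2 (1.12 ± 0.26) and Tgfbr3 (1.55 ± 0.22), and 7 did not pass (median 0.04). Podn, Optc, Bmp1, Timp3 and Tgfb3 are named here to complete short counts and were chosen after their values were seen.

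Several of these calls were lost when a single library was left out. All of those named next as lost passed with the replicate block and with replicates 1 and 2 only. Leaving out any 1 of replicates 1 and 2 of either group ended the PB-4 calls of Ogn, Nid1, Mmp2, Mmp14, Tgfb1 and Tgfbr2, with highest adjusted p-values of 0.0633, 0.136, 0.0927, 0.0998, 0.103 and 0.091 over the alternatives, and leaving out PB-4 replicate 3 ended that of Nid1 too. Sdc3 was lost without Control replicate 1 or 2 or PB-4 replicate 2 or 3 and in the fit of all 9 libraries (highest adjusted p 0.107). Nid2 was lost without Control replicate 1 or 2 (0.064), and Mmp9 without replicate 2 of either group (0.0583). The calls of Fmod, Prelp, Tgfbi, Smoc1, Nov, Ltbp1, Ltbp2, Cd36, Lrp1, Timp4 and Tgfbr3 held in 14 of 14 alternatives.

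**Figure D4:**
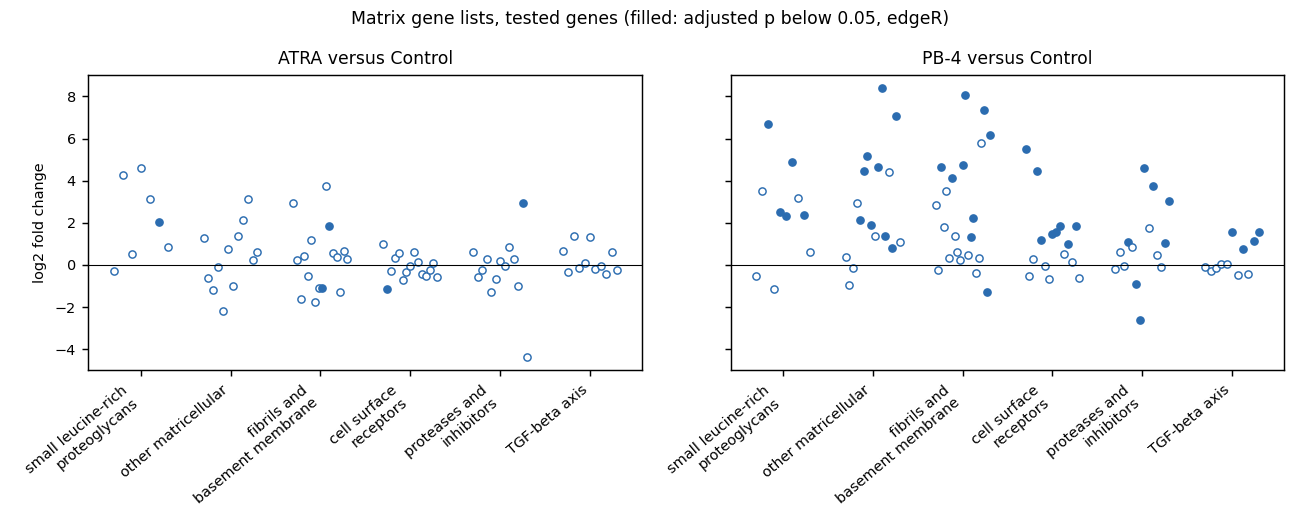
Fitted log2 fold change (y axis) of each tested gene in 6 matrix gene lists, for ATRA versus Control (left) and PB-4 versus Control (right); each point is 1 gene and filled points have an edgeR adjusted p below 0.05. With PB-4, 39 of 87 genes are filled above 0 and 3 below, and with ATRA 3 of 74 are filled above 0 and 2 below.

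With ATRA, 74 list genes were tested against the Control group, of which 3 rose, 2 fell and 69 did not pass. Called higher and lower were 0.441% and 0.625% of all genes tested. With the replicate block 14 list genes were higher and 14 lower (18.4% of all genes tested in either direction). With replicates 1 and 2 only 18 were higher and 19 lower of 71 (37%). Timp3, an inhibitor of matrix proteases, rose from 84.7 ± 7.89 to 666 ± 360 CPM (log2 fold change 2.96 ± 0.46, edgeR adjusted p = 0.0365). Prelp (2.06 ± 0.27, 0.0212) and Ltbp3, a store of latent transforming growth factor beta (1.85 ± 0.19, 0.00801), rose too. Cd44, a receptor of osteopontin and hyaluronan, fell from 498 ± 55.3 to 225 ± 30.7 CPM (-1.16 ± 0.20, 0.044), and the hemicentin gene Hmcn1 fell by 1.09 on the log2 scale (0.0471). Leaving out any 1 of replicates 1 and 2 of either group ended the calls of Timp3, Prelp, Cd44 and Hmcn1, with highest adjusted p-values of 0.207, 0.142, 0.261 and 0.234, and leaving out any of these except ATRA replicate 2 ended that of Ltbp3 (0.0933). Cd44 was also lost in the fit of all 9 libraries, and Hmcn1 with RLE factors or library totals.

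Against the ATRA-treated group, 28 of 86 list genes tested were higher with PB-4, 5 were lower and 53 did not pass. Called higher and lower were 10.3% and 1.94% of all genes tested. With the replicate block 41 list genes were higher and 9 lower (18.7% and 11.1% of all genes tested). With replicates 1 and 2 only 45 were higher and 12 lower of 85 (3984 and 3147 of all 18906 genes tested). Here too some list genes, such as Nov with 4 counts after ATRA, reached the count minimum only through PB-4-treated libraries. That minimum favoured the number called higher. The elastin gene Eln (6.42 ± 0.70, edgeR adjusted p = 8.7e-04), Nov (6.55 ± 0.71, 8.8e-04) and the receptor gene Tgfbr3 (1.83 ± 0.24, 0.00186) were higher. The 5 lower genes were Ltbp3 (-1.34 ± 0.21), Nid1 (-1.52 ± 0.31), Mmp2 (-2.76 ± 0.65), Timp3 (-1.91 ± 0.46) and Smad3, which encodes a signal carrier of transforming growth factor beta (-1.49 ± 0.29, 0.0115). Leaving out single libraries ended the calls of Timp3 (each library except ATRA replicate 3, highest adjusted p 0.1), Mmp2 (ATRA replicate 1 or 3, PB-4 replicate 1 or 2, 0.0882), Nid1 (replicate 2 of either group, 0.0728) and Smad3 (ATRA replicate 1, 0.057). The calls of Ltbp3, Eln, Nov and Tgfbr3 held in 14 of 14 alternatives.

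Some markers of other cell types moved with PB-4 as well. The 9 fibroblast genes summed to 20.1 to 26.4 CPM in Control libraries, 9.63 to 21.0 after ATRA and 359 to 1390 after PB-4, of which Col1a1 alone was 234, 284 and 1250 CPM. Of the 8 fibroblast genes tested, 4 rose against the Control group, Col1a1, Col3a1, Pdgfra and Pdgfrb, and 0 fell (11.5% and 4.59% of all genes tested). Col1a2 did not pass, with 3.21, 2.66 and 4.49 CPM in Control libraries and 3.84, 2.43 and 11.8 CPM after PB-4. Acta2 and Tagln, at most 1.9 and 0.339 CPM in any library, did not pass either. The fibroblast marker Thy1 had 0 counts in all 9 libraries, and Fap reached at most 0.348 CPM, in a Control library. The 8 macrophage and immune genes summed to 11.8 to 16.8 CPM in Control libraries, 4.41 to 7.57 after ATRA and 36.3 to 44.4 after PB-4. Of 6 tested, 2 rose against the Control group, Lyz2 and Adgre1, and 0 fell (11.5% and 4.59% of all genes tested). Adgre1 had 0 counts in the Control group and 25 with PB-4. Cd68 did not pass, with 10.6, 9.09 and 14.8 CPM in Control libraries and 13.9, 17.1 and 13.9 CPM after PB-4. Ptprc, the leukocyte marker, was 0.853, 1.03 and 0.0677 CPM after PB-4. Csf1r, Itgam and Cd14 reached at most 0.116, 0.465 and 0.411 CPM in any library, and Cd3e had 0 counts. The 5 endothelial genes reached at most 1.22 CPM in any library. The 6 neuron and Schwann cell genes summed to 37.3 to 51.4, 95.5 to 208 and 125 to 207 CPM. The part of other cells in the rise of Postn, Lum and Spp1 was not tested.

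The genes with the pattern most like each member over the 9 libraries were found among 13269 others with a mean of at least 1 CPM, as the smallest root mean square difference of centred log2(CPM + 0.5). For Postn they were S100a4 (0.37), Pcolce2 (0.40) and A230057D06Rik (0.40), and for Spp1 Pla2g2e (0.35), LOC108168139 (0.39) and Gadd45g (0.40). For Thbs1 they were Paqr8 (0.28), Plscr4 (0.29) and Tgfa (0.32). For Fbln1 they were N4bp3 (0.14), Ttyh2 (0.17) and Aldh1l1 (0.17), and for Sparc Dffa (0.11), Cd151 (0.11) and Nomo1 (0.12). The 5 members at this level were farther from each other than from these genes, the nearest pair being Sparc and Fbln1 (0.52).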

How the data were processed

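Total RNA of B16 cells was sequenced by the authors in 9 libraries. The deposited values used here are raw counts per gene, in whole numbers and not normalized by the authors. By the submitters' processing notes, reads were aligned with HISAT2 2.0.4 to mm10 (GRCm38). The counter, annotation and strand setting were not given in the sources used here. From 46095 rows, 27 whose names had become dates were removed (0.214 to 0.26% of counts per library). The miRNA count table of the other 9 samples was not used here.

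Pairs of groups were compared with edgeR 4.0.16 (R 4.3.3; robust quasi-likelihood fit, TMM factors) over genes with at least 10 counts in the 6 libraries, with Benjamini-Hochberg adjustment over all genes tested. Standard errors were |log2 fold change| over the root of F. CPM used TMM factors over 9 libraries. Depth was 12659796 to 36255166 counts per library.

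Deviations of same-numbered libraries from their group means correlated at 0.458 to 0.77, all above 0.1. The main fits left the replicate number out, and the replicate block was run as 1 of the 14 alternatives. Replicates 1 and 2 with unlike numbers correlated at 0.384 to 0.622, and either with a replicate 3 at -0.726 to -0.498, so the numbers mainly set replicate 3 apart. The 14 alternatives per comparison were DESeq2 1.42.0, edgeR scaled by RLE or by library totals alone, no count filter or filterByExpr, all 9 libraries, the replicate block, replicates 1 and 2 only, and leaving out each library.

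The members, lists and tests were chosen with earlier results of these data known. Named are the 10 members, up to 3 genes per list and direction with the largest called changes and a mean of at least 1 CPM, and 3 most similar genes per member of that level. 1 gene within this rule is left out of the text. The label of mouse skin tissue was read as the origin of the B16 line. Gene positions and promoters came from RefSeq (GRCm38.p6), and tables and figures from Python 3.11.15 with pandas 2.3.3, numpy 2.4.6, scipy 1.17.1 and matplotlib 3.10.9.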

Additional observations from a re-analysis of the deposited data

How the results depend on the processing

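Of 78 alternative values of members for ATRA versus Control, 70 kept their direction and side of the threshold, 5 were newly called and 3 reversed. For PB-4 versus Control these were 97, 9 and 4 of 119, with 9 calls lost, and for PB-4 versus ATRA 91, 9 and 1 of 116, with 15 lost. No reversed value was called: Fbln1 for ATRA versus Control ran from -0.82 to 0.31 when a library was left out, and was above 0 without Control replicate 3, ATRA replicate 1 or ATRA replicate 2 (0.31, 0.20 and 0.25). Fbln2 for PB-4 versus Control was 0.08 with library totals only, 0.17 with the replicate block, and from -0.67 to 0.43 when a library was left out (above 0 without PB-4 replicate 1 or 3). Sparc for PB-4 versus ATRA ran from -0.01, without PB-4 replicate 3, to 0.54. The cause was not tested.

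Against 0 members called for ATRA versus Control, 5 were called with replicates 1 and 2 only. Against 3 for PB-4 versus Control, 5 were called with DESeq2, 7 with the replicate block, 6 with replicates 1 and 2 only and 1 to 2 when a library was left out. Against 4 for PB-4 versus ATRA, leaving out a library gave 1 to 5. The block changed no member's call other than those given beside the results. Of all genes, 191 were called for ATRA versus Control, with 1248 by DESeq2, 411 with no filter, 388 in the fit of all 9 libraries, 3288 with the replicate block, 6457 with replicates 1 and 2 only and 10 to 980 with a library left out. For PB-4 versus Control 3139 were called, with 8630, 7461 and 1341 to 3440 under the last 3 of these, and for PB-4 versus ATRA 2384, with 5821, 7131 and 1194 to 2761. With a library left out, 5 libraries remained in each fit, and fewer libraries were at hand to estimate the spread. With library totals only, the share of calls that were higher with PB-4 than in the Control group was 84.5% (71.6% with TMM) and the median of all genes 0.20 (0.03). With the block it was 52.1%. Depth limits Dcn, Lum, Thbs2 and Fbln2, each with no more than 38 counts in any group.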
